A study of Mus musculus with 4 samples.

Results

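Transcripts of 7 complement genes, C3, Cfb, C4b, C1ra, C1s1, Serping1 and Cd55, were followed through single cells of cytokine-treated mouse islets. They were taken by gene symbol from the 31053 genes of the count matrices, and all 7 were present. Islets of male C57BL6/J mice (C57BL/6 in the labels) were pooled and divided into 4 samples, of which 1 was left untreated and the others received the interleukin IL-1β, the interferon IFN-γ, or IL-1β plus IFN-γ for 6 h, and 1 library was made from each. No culture time is labelled for the untreated sample. The pooling leaves no measure of the spread between animals. With 1 library per condition there is no test between conditions, and every interval given is a 95% interval for counting error only.

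Series of 4 values follow 1 order throughout, first the untreated library, then IL-1β, then IFN-γ, then the combination. The libraries held 3486, 2911, 3694 and 2480 barcodes with 50731370, 20056630, 31209339 and 25716645 unique molecular identifiers (UMIs, each standing for 1 captured transcript). Barcodes were kept where 200 to 4000 genes were detected and mitochondrial UMIs made up no more than 12%, which left 1521, 2018, 2122 and 1810 cells, 7471 of 12571 barcodes in all. Their median depths were 15454, 7462.5, 9615 and 11123.5 UMIs. Shares of cells with a transcript are therefore also given after every cell was thinned to 4000 UMIs. Of all barcodes, 16 occurred in 2 libraries, and 4 of these were among the kept cells. Levels are UMIs of a gene scaled to 1e+06 UMIs of the same cells (CPM).

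Cells were named per cell from the hormone share of their UMIs or from marker genes. There were 5029 β-like, 965 α-like, 555 δ-like and 172 PP-like cells, 144 macrophage-like, 114 endothelial-like, 69 ductal-like, 62 acinar-like, 50 mesenchymal-like and 8 Schwann-like cells, and 277 cells without a name. A further 8 cells with a hormone and markers of another class, and 18 with markers of 2 classes, were set aside. In an alternative clustering, 81 of the 172 PP-like cells fell in the PP cluster and 66 in α clusters. All 7 β-cell markers were detected in the β-like cells of each library, and all 11 macrophage markers in the macrophage-like cells. T cell markers were at 0 in the β-like cells of all 4 libraries. Markers listed for other cell types were also counted in β-like cells. Their 8 acinar markers summed to 74.1, 13.9, 72.1 and 307 CPM, with Ctrb1 the most abundant in each, and their 8 ductal markers to 223, 431, 220.0 and 228 CPM, led by Krt7 in all but the IL-1β library, where Spp1 led. Their 11 macrophage markers summed to 4.52, 15.1, 7.17 and 12 CPM, led by Cd68. The source of these UMIs and their part in the results were not tested.

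Read-out genes followed the labels of the libraries. Nos2, which encodes the inducible nitric oxide synthase, had 1, 1432, 34 and 10289 UMIs in β-like cells. Irf1, an interferon-induced transcription factor, stood at 19.8, 40.7, 206 and 335 CPM. The interferon-induced GTPase gene Gbp2 was at 1.49, 284, 834 and 1834 CPM, and the β-defensin gene Defb1 at 27.5, 961, 60.1 and 841 CPM. Nos2 and Defb1 were thus highest in the libraries with IL-1β, and Irf1 and Gbp2 in those with IFN-γ.

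Complement is a set of blood and tissue proteins that tags microbes and damaged cells and recruits leukocytes. The classical pathway starts with C1, in which the recognition protein C1q (chains encoded by C1qa, C1qb and C1qc) carries the proteases C1r and C1s. Of these, C1s cuts C4 and C2. The alternative pathway amplifies the deposition of C3 with the protease factor B, encoded by Cfb. Both pathways meet at C3, the most abundant complement protein of plasma. Serping1 encodes C1 inhibitor, which blocks C1r and C1s, and Cd55 encodes decay-accelerating factor, a membrane protein that disassembles the C3 convertases. Most plasma complement is made by the liver, and several components are acute-phase proteins controlled by cytokines.

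The 7 genes lie on 4 chromosomes (GENCODE M21 annotation of GRCm38, the assembly also called mm10). C3 is at chr17:57203970-57228136, Cfb at chr17:34856374-34862518 and C4b at chr17:34728380-34743882, all on the minus strand, with Cfb and C4b in the same stretch of the chromosome as C2. C1ra (chr6:124512405-124523443, plus strand) and C1s1 (chr6:124530345-124542359, minus strand) are neighbours. Serping1 is at chr2:84765387-84775444 and Cd55 at chr1:130439027-130462744, both on the minus strand. All are annotated as protein-coding.

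Some of these genes have near copies, and libraries read at the 3′ end can split reads between them. Over the last 500 bases of their transcripts, C4b and C4a were 98.2% identical, Cd55 and Cd55b 97.4%, C1s1 and C1s2 87.4%, Cfb and C2 57.6% and C1ra and C1rb 51.2%. Counts of C4b and Cd55 are therefore uncertain, C4a was not among the analysed genes, and Cd55b had 0 UMIs in the named cells. Cfb also overlaps Gm20547, a read-through gene on the same strand. Gm20547 had 0 UMIs in the β-, α-, δ-, PP-, endothelial-, macrophage-, mesenchymal-, ductal- and acinar-like cells. Whether reads shared by Cfb and Gm20547 were lost from the Cfb counts was not tested.

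RefSeq promoter windows of GRCm38.p6, reaching 250 bases before and 50 after the annotated start, were at hand for 4 of the 7 genes (C3, C1ra, C1s1 and Cd55), with 2 annotated starts for C1s1 and so 5 windows. The windows of C3 and C1ra are shown because these were the genes of the 4 that reached 5 CPM in β-like cells. Capitals mark the letters of a C/EBP motif (TTGCNNAA) or of a gamma-activated sequence (GAS, TTCNNNGAA, a STAT motif), searched on both strands.
C3, chr17:57228087-57228386, minus strand: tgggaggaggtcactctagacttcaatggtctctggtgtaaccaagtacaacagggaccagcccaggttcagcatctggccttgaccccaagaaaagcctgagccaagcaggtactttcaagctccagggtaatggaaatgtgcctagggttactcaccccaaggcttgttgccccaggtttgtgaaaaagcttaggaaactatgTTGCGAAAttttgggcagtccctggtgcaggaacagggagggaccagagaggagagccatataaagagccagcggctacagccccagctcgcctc
C1ra, chr6:124512371-124512670, plus strand: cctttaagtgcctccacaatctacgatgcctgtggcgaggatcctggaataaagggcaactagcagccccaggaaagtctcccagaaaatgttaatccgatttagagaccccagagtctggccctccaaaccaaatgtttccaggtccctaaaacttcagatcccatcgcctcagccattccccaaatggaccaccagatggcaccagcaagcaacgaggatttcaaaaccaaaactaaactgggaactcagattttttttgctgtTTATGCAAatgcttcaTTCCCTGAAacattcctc

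The C3 window held TTGCGAAA 45 bases before the start. The C1ra window held TTATGCAA 16 bases and TTCCCTGAA 32 bases after the RefSeq start. The GENCODE start of C1ra, chr6:124512405, also lies in this window, ahead of the RefSeq start. Relative to GENCODE, most of the window and both motifs thus lie inside the gene. C1s1 had TTAGGCAA 242 bases before 1 of its starts, and its other window and that of Cd55 held neither motif. Among 32851 promoter windows of this length, 10.8% held the C/EBP letters and 8.30% the GAS letters. The NF-κB motif (4.51% of windows) and the interferon-stimulated response element (ISRE, 3.44%) were found in none of the 5 windows. These matches describe the sequence, not binding.

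In β-like cells, 4 of the 7 genes reached the limit for comparison, a mean of 5 CPM over the 4 libraries, and these were C3, Cfb, C1ra and Serping1. With IL-1β all 4 were at least 2-fold higher than in the untreated library, where 16.9% of the 9235 genes compared were. With IFN-γ 2 were, C1ra and Serping1, against 4.62% of genes, and with both cytokines all 4 were, against 10.8%. None was 2-fold lower in any library, where 3.64%, 0.119% and 7.69% of genes were with IL-1β, IFN-γ and both. The median log2 ratio of the 4 genes was 3.49, 0.90 and 3.62 for IL-1β, IFN-γ and both, and that of all genes 0.40, 0.32 and 0.07. C3, Cfb and C1ra stood under 5 CPM in both libraries without IL-1β and reached the limit through those with it. Serping1 was above 5 CPM in every library. Nothing is therefore read from these counts or from the median of the 4 genes. The shift of the median gene above 0 goes with a lower share of hormone UMIs, which was 47.6% in untreated β-like cells and 28.4%, 34.4% and 37.8% in the others. Relative to the median gene, the ratios were 4.15, 20.4, 17.4 and 2.54 for C3, Cfb, C1ra and Serping1 with IL-1β, 0.87, 0.60, 2.60 and 4.30 with IFN-γ, and 6.28, 21.8, 70.2 and 5.16 with both.

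**Figure D1:**
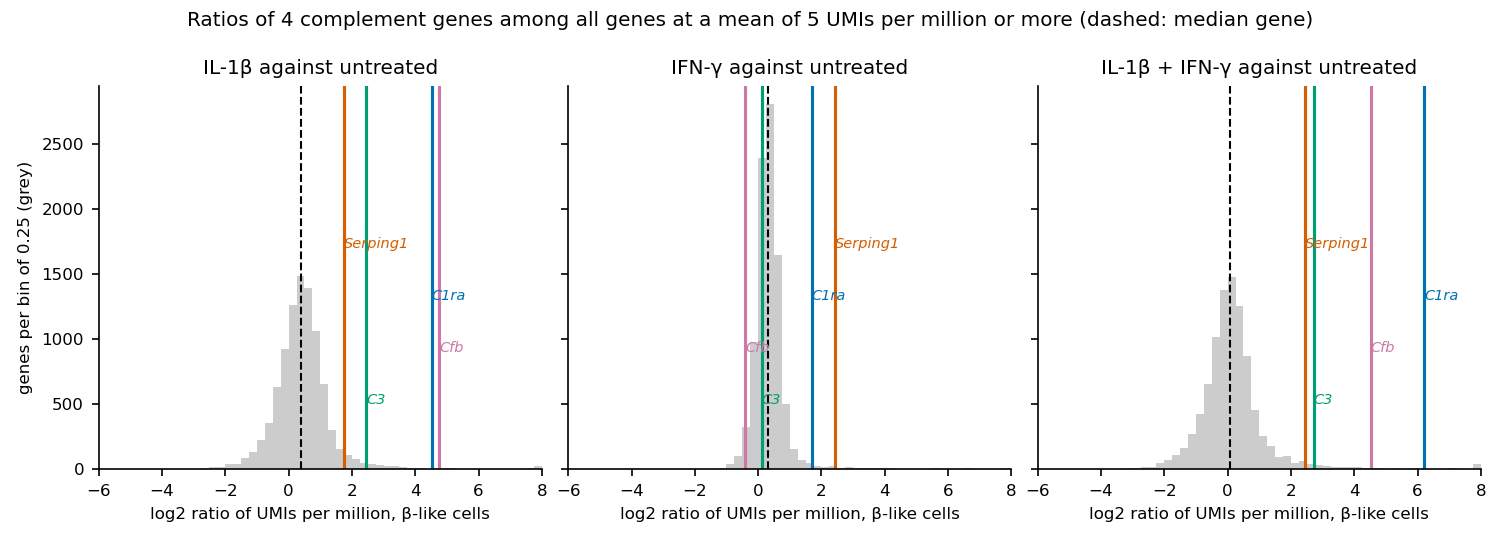
Log2 ratios of CPM in β-like cells, each cytokine library against the untreated one. Grey bars count the compared genes per bin of 0.25 (ratios beyond the axis are in the last bin), the dashed line is the median gene and coloured lines are C3, Cfb, C1ra and Serping1. All 4 lines lie right of the bulk of genes with IL-1β and with both cytokines, whereas C3 (log2 0.11) and Cfb (log2 -0.41) lie left of the median gene with IFN-γ.

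Cfb, the protease of the alternative pathway, followed IL-1β. β-like cells held 24, 343, 13 and 441 UMIs of Cfb, that is 1.19, 32.2, 0.90 and 27.3 CPM. The 2 libraries with IL-1β were high and those without it low, and the intervals of these pairs did not overlap. Cfb was 27.0-fold higher with IL-1β than without cytokine (17.9 to 42.8) and 22.9-fold higher with both (15.2 to 36.1), whereas the ratio for IFN-γ was 0.75 (0.35 to 1.54). With 1 CPM added to every level the first pair of ratios was 15.2 and 12.9, and after thinning the IL-1β ratio was 17.4. The combination divided by IL-1β alone gave 0.85 (0.73 to 0.98), but 0.98 (0.85 to 1.13) without hormone genes in the totals, and relative to the median gene the combination was the higher of the pair, so no direction is read from it. After thinning, 0.61%, 9.81%, 0.32% and 9.31% of β-like cells had a Cfb UMI. Macrophage-like cells, at a median of 9746, 5170, 8441 and 9484 UMIs, had a Cfb UMI in 0, 0, 2 and 0 cells. With no Cfb UMI, the upper bound of the macrophage-like level was 17.6 CPM with IL-1β and 13.9 CPM with both, below the β-like levels of those libraries. The thinned shares of the classes could not be told apart, since 0 of 28 macrophage-like cells with IL-1β allows up to 12.3%.

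C3, the component on which both pathways meet, was also higher in the libraries with IL-1β, at smaller ratios than Cfb. Its β-cell levels were 3.57, 19.6, 3.86 and 23.6 CPM, from 72, 209, 56 and 381 UMIs. Both libraries with IL-1β were above both without it. C3 was 5.49-fold higher with IL-1β (4.18 to 7.28) and 6.60-fold higher with both cytokines (5.12 to 8.61), and the ratio for IFN-γ was 1.08 (0.75 to 1.55). The combination divided by IL-1β alone gave 1.2 (1.01 to 1.43), or 1.38 (1.17 to 1.64) without hormone genes in the totals. A few cells held many of the C3 UMIs, with a larger share in the combined library (below). None of these ratios was recalculated without such cells, so no direction is read from the combination against IL-1β alone. When cells with more than 4000 genes were kept too, the ratios were 3.26 for IL-1β, 0.67 for IFN-γ and 3.59 for both.

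C3 transcripts were unevenly spread over β-like cells. In the combined library, 16 of 1308 β-like cells held 5 or more C3 UMIs each and together 39.1% of all C3 UMIs, and 1 cell held 22. In the IL-1β library, 7 cells did, with 26.3% of the UMIs, and no cell of the other libraries had 5. Acinar and ductal markers were not more abundant in the 16 cells, at 18.4 and 147 CPM, than in cells of that library without C3, at 355 and 236 CPM, and macrophage markers stood at 25.7 and 12.4 CPM. In the 7 cells of the IL-1β library ductal markers stood at 615 CPM, against 422 CPM in cells without C3, acinar markers at 40.1 against 13.3 CPM (3 UMIs in the 7 cells), and macrophage markers at 0. The part of this RNA in the C3 values was not tested. After thinning, 1.30%, 5.43%, 1.43% and 5.63% of β-like cells had a C3 UMI.

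C1ra, which encodes the protease C1r, differed most with the combination. β-like cells held 12, 146, 28 and 710 UMIs, or 0.60, 13.7, 1.93 and 43.9 CPM. The combined library stood highest, the IL-1β library next and the IFN-γ library above the untreated one, with no overlap between the intervals of neighbours. The ratio against untreated was 23.0 with IL-1β (12.8 to 45.6), 3.24 with IFN-γ (1.6 to 6.99) and 73.8 with both (42.0 to 143), and the combination was 3.20-fold above IL-1β alone (2.68 to 3.86). With 1 CPM added to every level the ratios against untreated were 9.22, 1.84 and 28.2, so that C1ra with IFN-γ was no longer 2-fold higher. Added to the untreated level, the differences of the single cytokines would give 15.0 CPM, and the measured level was 28.9 CPM above that (24.9 to 32.9). Of β-like cells thinned to 4000 UMIs, 0.17%, 5.60%, 0.71% and 14.7% had a C1ra UMI.

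C1s1, which encodes the partner protease C1s, was low in β-like cells, where its mean over the libraries lay under 5 CPM. It had 1, 6, 3 and 92 UMIs, or 0.05, 0.56, 0.21 and 5.69 CPM. The combined library stood apart from the other 3. Against the single UMI of the untreated library the ratio was 115, with a counting interval from 20.1 to 4579, and against IL-1β alone it was 10.1 (4.47 to 28.2). The ratio against untreated was 6.38 with 1 CPM added to both levels. The sum of the single-cytokine differences would give 0.72 CPM, and the measured level was 4.97 CPM higher (3.70 to 6.25). The neighbouring genes C1ra and C1s1 were thus both above that sum.

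Serping1, which encodes the inhibitor of C1r and C1s, was present in every library and was higher with each cytokine. Its β-cell levels were 44.7, 150.1, 239.7 and 243 CPM, from 901, 1598, 3479 and 3923 UMIs. The untreated library was lowest, IL-1β intermediate, and the 2 libraries with IFN-γ highest. The ratios against untreated were 3.36 with IL-1β (3.09 to 3.65), 5.36 with IFN-γ (4.98 to 5.77) and 5.43 with both (5.05 to 5.84), and the combination divided by IFN-γ alone gave 1.01 (0.97 to 1.06), or 1.07 (1.02 to 1.12) without hormone genes in the totals. The combined level minus the sum built from the single-cytokine differences was -102 CPM (-116 to -88.7). In thinned cells 16.2%, 42.2%, 55.3% and 59.7% had a Serping1 UMI, and before thinning 41.9%, 62.1%, 81.0% and 84.8%.

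C4b and Cd55 were near the limit of detection. C4b, which encodes the component cut by C1s, had 16, 9, 24 and 22 UMIs in β-like cells, or 0.79, 0.85, 1.65 and 1.36 CPM. The ratio was 2.08 with IFN-γ (1.06 to 4.19), 1.06 with IL-1β (0.41 to 2.56) and 1.71 with both (0.86 to 3.49), and the IFN-γ ratio was 0.92 after thinning, 1.66 without hormone genes in the totals and 1.48 with 1 CPM added. Cd55 had 6, 4, 3 and 4 UMIs in β-like cells, and no difference was detectable at this depth. No more than 3 UMIs of either gene were found in any other class of a library, apart from 5 UMIs of C4b in the 3 Schwann-like cells of the combined library.

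**Figure D2:**
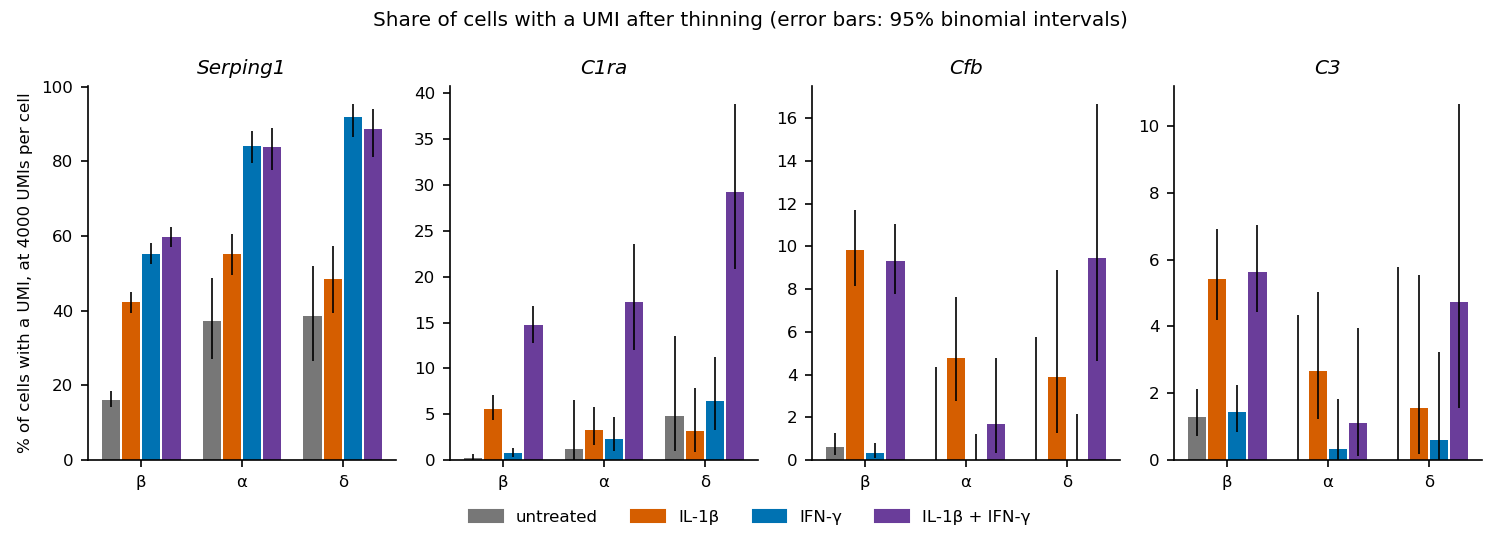
Percentage of β-, α- and δ-like cells with at least 1 UMI of Serping1, C1ra, Cfb or C3 in each library, after thinning to 4000 UMIs per cell, with 95% binomial intervals. Serping1 shares in β-like cells go from 16.2% (untreated) to 59.7% (both cytokines), C1ra is highest with both cytokines in all 3 classes, and Cfb and C3 are high in β-like cells only in the 2 libraries with IL-1β.

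More complement genes were detected per β-like cell with the combination. At least 1 UMI of 2 or more of C3, Cfb, C1ra and Serping1 was rare in untreated thinned cells, of which 0.35% had 2 of the 4 and none had 3. Exactly 2 were found in 9.54% of thinned cells of the IL-1β library, in 1.11% of the IFN-γ library and in 16.8% of the combined library. Exactly 3 were found in 1.23% of thinned cells with IL-1β (0.67 to 2.05%) and in 1.72% with both (1.08 to 2.59%), with overlapping intervals. All 4 were found in 1 of 1142 thinned cells with IL-1β and in 0 of 1278 with both. At the depth of the combined library without thinning, 10.4% of its β-like cells had none of the 4 genes and 2.06% had all 4.

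At equal depth, UMIs of these genes were compared between β-like cells with and without a Nos2 UMI. In the combined library, a Cfb UMI was found in 12.3% of 764 thinned β-like cells with Nos2 (10.1 to 14.8%) and in 4.86% of 514 without it (3.17 to 7.10%). The shares of C1ra were 17.9% and 9.92% and those of Serping1 66.6% and 49.4%, again with separate intervals. Those of C3 were 7.07% (5.35 to 9.12%) and 3.5% (2.09 to 5.48%), with intervals that overlapped, while the C3 levels of the same thinned cells, 28.5 CPM (22.8 to 35.1) and 10.2 CPM (6.32 to 15.6), did not overlap. In the IL-1β library the intervals separated for Cfb, at 15.7% of 261 cells with Nos2 (11.5 to 20.7%) and 8.06% of 881 without (6.35 to 10.1%). They overlapped there for the shares of C3, C1ra and Serping1, and the C3 levels were 34.5 CPM with Nos2 (24.2 to 47.7) and 17.0 CPM without (13.0 to 21.9). The intervals of levels take UMIs as independent, whereas few cells held many of the C3 UMIs. Cells of 1 library are not replicates, and these shares describe single libraries.

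**Figure D3:**
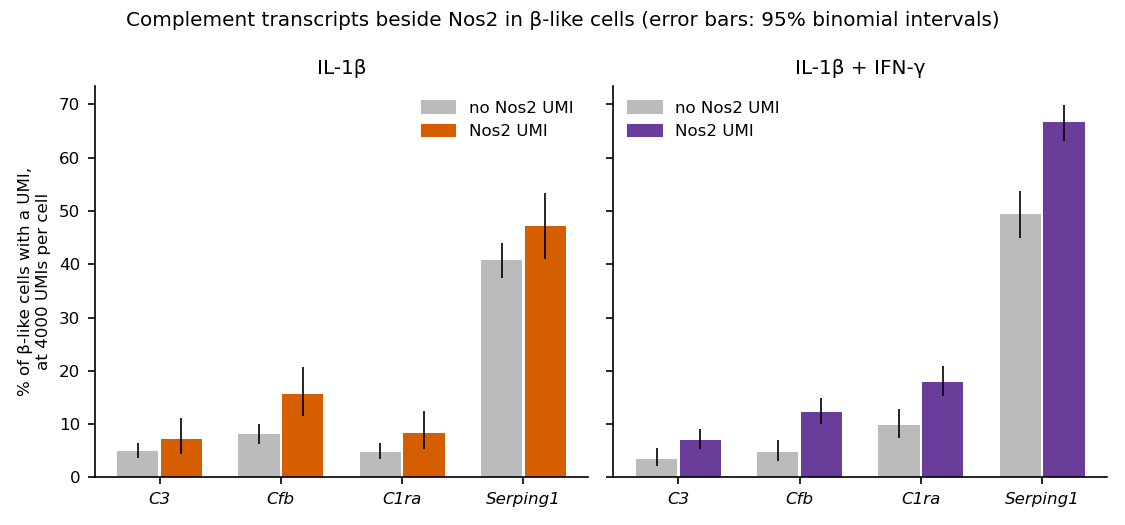
Percentage of β-like cells with a UMI of C3, Cfb, C1ra or Serping1, split by whether the cell had a Nos2 UMI, in the IL-1β and the combined library, at 4000 UMIs per cell with 95% binomial intervals. In the combined library the intervals separate for Cfb, C1ra and Serping1 (66.6% against 49.4%) and overlap for C3.

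Cfb was set against C3 in the same way. With IL-1β, 12.9% of 62 thinned cells with C3 had Cfb (5.74 to 23.9%) and 9.63% of 1080 without C3 (7.94 to 11.5%). With both cytokines the values were 16.7% of 72 (8.92 to 27.3%) and 8.87% of 1206 (7.33 to 10.6%). The intervals of these shares overlapped in both libraries, whereas the Cfb levels of the combined library were 59.0 CPM with C3 (34.4 to 94.5) and 25.9 CPM without (21.6 to 30.9) and did not. In the IL-1β library the Cfb levels were 40.3 CPM with C3 (19.3 to 74.2) and 29.6 CPM without (24.7 to 35.2), and these overlapped. Split by C1ra, thinned cells of the IL-1β library had Cfb in 17.2% of 64 cells with C1ra (8.90 to 28.7%) and 9.37% of 1078 without (7.70 to 11.3%). In the combined library the shares were 8.51% of 188 (4.94 to 13.5%) and 9.45% of 1090 (7.78 to 11.3%), so the order differed between the libraries and the intervals overlapped in both. Before thinning, the shares were 31.8% and 15.6% for IL-1β and 29.7% and 16.3% for the combination, with separate intervals but at unequal depth, since cells with C1ra had medians of 9729 and 13340 UMIs and those without 8346.5 and 11519.

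α-like cells had 3 of the 7 genes above the limit of 5 CPM, namely Cfb, C1ra and Serping1. With IL-1β 2 were at least 2-fold higher (Cfb and C1ra), where 9.31% of 9735 genes were. With IFN-γ 2 were (C1ra and Serping1), against 6.56% of genes, and with both cytokines all 3 were, against 10.2%. Of these, C1ra with IFN-γ fell under the 2-fold limit when cells with more than 4000 genes were kept and after thinning. Cfb with IL-1β did after thinning, and was also not counted as 2-fold higher with the mean of single-cell CPM. None was 2-fold lower, where 9.52%, 2.20% and 15.0% of genes were. The cells numbered 92, 372, 316 and 185, so the untreated levels of Cfb and C1ra rest on 1 and 2 UMIs. As in β-like cells, Cfb and C1ra reached 5 CPM through the libraries in which they were high, and nothing is read from these counts.

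Serping1 was higher in α-like than in β-like cells in each library, at 137.8, 220.4, 492 and 465 CPM. IL-1β was 1.6-fold above untreated (1.32 to 1.95) and IFN-γ 3.57-fold (2.98 to 4.32), and the combination was 0.94 of IFN-γ alone (0.86 to 1.03). C1ra stood at 2.15, 10.6, 7.39 and 47.4 CPM, and the combined library was above the others without overlap. The ratio against untreated was 4.93 with IL-1β (1.24 to 42.7) and 3.43 with IFN-γ (0.83 to 30.4), the latter with an interval that holds 1. Keeping cells with more than 4000 genes gave 3.20 and 1.97, and thinning gave 2.96 and 1.92. The combined level was 4.47-fold above IL-1β alone (2.88 to 7.14) and 31.6 CPM above the sum of single-cytokine differences (19.6 to 43.5).

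Cfb had 1, 35, 1 and 13 UMIs in α-like cells, or 1.08, 13.3, 0.39 and 7.70 CPM. The IL-1β ratio of 12.3 spans 2.07 to 500.1 because the untreated count was 1, and after thinning it was 1.40 against the detection floor of 3 UMIs. C3 had 0, 20, 3 and 5 UMIs in α-like cells, at least 2.35-fold above the untreated floor with IL-1β, a bound that was 0.91 after thinning and so shows no difference there. Ductal markers in α-like cells summed to 2539, 8764, 3234 and 4378 CPM, of which Spp1 made up 2367, 8583, 3077 and 4174 CPM, and their part in the C3 values was not tested.

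δ-like cells had 4 genes above the limit. With IL-1β 1 was at least 2-fold higher (Cfb), where 11.0% of 9981 genes were, with IFN-γ 1 was (Serping1), against 5.85%, and with both cytokines all 4 were, against 12.1%. None was 2-fold lower, where 13.6%, 5.88% and 21.5% of genes were. C3 and Cfb, at 0 in the untreated library, reached 5 CPM through the libraries with IL-1β, and nothing is read from these counts. The cells numbered 69, 171, 189 and 126.

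δ-like cells had the highest Serping1 levels of the endocrine classes in the 2 libraries with IFN-γ. The levels were 137.4, 226, 659.6 and 619 CPM, and IFN-γ was 4.80-fold above untreated (3.81 to 6.13). C1ra was at 12.3, 7.84, 13.2 and 83.8 CPM, so that the 2 single cytokines differed from untreated by less than their counting error, with ratios of 0.64 (0.19 to 2.12) and 1.07 (0.43 to 3.03). With both cytokines C1ra was 6.80-fold above untreated (3.13 to 17.5) and 10.7-fold above IL-1β alone (4.92 to 27.6). The combined level was 75.1 CPM above the sum of the single-cytokine differences (51.6 to 98.6). After thinning, 4.84%, 3.12%, 6.47% and 29.2% of δ-like cells had a C1ra UMI.

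Cfb in δ-like cells had 0, 16, 1 and 20 UMIs, at least 3.39-fold higher with IL-1β and at least 4.66-fold higher with both than the floor of 3 UMIs in the untreated library, bounds that were 1.13 and 2.14 after thinning. C3 had 0, 5, 2 and 13 UMIs, at least 3.03-fold above that floor with both cytokines, or 1.56-fold after thinning. C1s1 was at 0 in the other 3 libraries and had 10 UMIs with both, at least 2.33-fold above the untreated floor, or 1.17-fold after thinning. In PP-like cells C1ra had 0, 5, 4 and 29 UMIs, and the combination was at least 7.16-fold above untreated and 3.29-fold above IL-1β (1.26 to 10.9).

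Across the 4 endocrine classes the order of Serping1 depended on the library. Untreated α- and δ-like cells did not differ beyond counting error, nor did α- and δ-like cells with IL-1β. With IFN-γ the order was δ-like, α-like, PP-like and β-like, each above the next without overlap. Since many PP-like cells fell in α clusters, the place of the PP-like class in these orders is uncertain. For C1ra with both cytokines the neighbours in the order δ-, PP-, α- and β-like overlapped, but the δ-like level (65.1 to 106.3 CPM) was above the α-like (37.6 to 59.0) and β-like (40.8 to 47.3) levels. For Cfb with IL-1β the order was β-, δ- and α-like, again with overlapping neighbours.

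**Figure D4:**
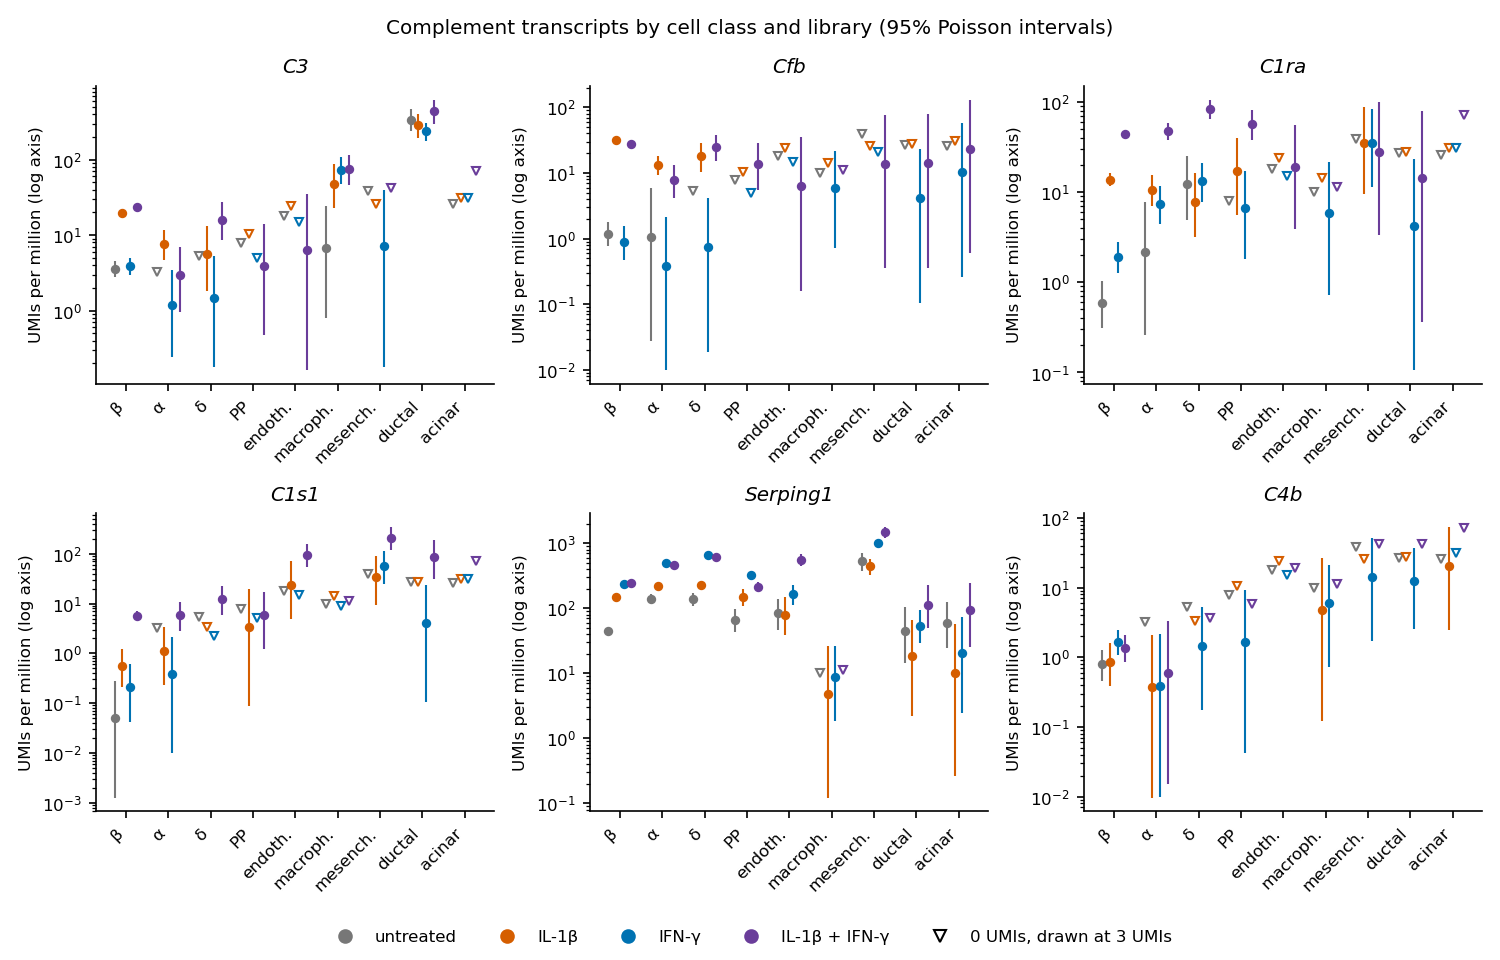
CPM (log axes, each panel with its own range) of C3, Cfb, C1ra, C1s1, Serping1 and C4b in 9 cell classes and 4 libraries, with 95% Poisson intervals; open triangles mark 0 UMIs and are drawn at the floor of 3 UMIs. C3 is highest in ductal-like cells in every library (238 to 443 CPM), Serping1 in mesenchymal-like cells (442 to 1473 CPM), and Serping1 is near 0 in macrophage-like cells.

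Ductal-like cells had the highest C3 levels in each library. They were 339.9, 287, 238 and 443 CPM from 38, 31, 57 and 31 UMIs in 17, 17, 26 and 9 cells. Against untreated, IL-1β gave a ratio of 0.84 (0.51 to 1.39), IFN-γ 0.70 (0.46 to 1.08) and the combination 1.30 (0.78 to 2.15), and each of these intervals held 1. The combination was 1.86-fold above IFN-γ alone (1.16 to 2.94). C1s1 was detected in ductal-like cells as 0, 0, 1 and 6 UMIs.

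Macrophage-like cells came next for C3 in the cytokine libraries, at 6.66, 47.8, 74.1 and 75.1 CPM, while their untreated level overlapped that of β-like cells. The 3 cytokine libraries were above the untreated one, with ratios of 7.18 (1.53 to 67.4), 11.1 (2.77 to 96.9) and 11.3 (2.74 to 99.6), on 2 untreated UMIs. Here IFN-γ alone was as high as the combination, unlike in β-like cells, but the difference between the classes was not tested. Serping1 had 0, 1, 3 and 0 UMIs in macrophage-like cells. Ins2 was found in the same cells at 3984, 679, 1828 and 958 CPM, and its source was not tested. With IFN-γ, 6.98% of macrophage-like cells had a Serping1 UMI (median depth 8441 UMIs), while 81.0% of β-like cells did (median depth 11075 UMIs).

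Mesenchymal-like cells had the highest Serping1 levels in each library, at 527, 442, 996.9 and 1473 CPM in 9, 16, 16 and 9 cells. IL-1β was 0.84 of untreated (0.54 to 1.30), IFN-γ 1.89-fold higher (1.33 to 2.75) and the combination 2.79-fold higher (1.93 to 4.11). Their C1s1 UMIs were 0, 4, 8 and 15, or up to 208 CPM with both cytokines, 6.01-fold above IL-1β (1.92 to 24.9). In endothelial-like cells Serping1 was 83.7, 80.2, 164.5 and 552 CPM, and the combination was 3.36-fold above IFN-γ (2.22 to 5.18). These UMIs came from 1, 2, 10 and 7 cells. C1s1 in endothelial-like cells had 0, 3, 0 and 15 UMIs. Endothelial markers in these 27, 31, 38 and 18 cells summed to 18355, 16432, 10829 and 7973 CPM, and whether the cells of the class or their marker levels differed between libraries was not tested.

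The other complement genes were taken from a list of 47, of which 46 were among the analysed genes. In β-like cells 6 of them passed the limit of 5 CPM. At least 2-fold higher were 1 with IL-1β (Clu), 0 with IFN-γ and 2 with both cytokines (C1rl and Clu), and none was 2-fold lower. In α-like cells 7 passed, of which Clu was higher with IL-1β and with both, C1qa and C8b were lower with IL-1β, and C1qa was lower with IFN-γ. In δ-like cells 8 passed, of which Clu and Cfi were higher with IL-1β and C2 and Clu with both, while C1qa was lower with IL-1β, C8b with IFN-γ and Cd59a with both. The shares of all genes past the same limits are those given above for each class and library. Some of these genes, such as C2 in δ-like cells, passed the limit of 5 CPM through the libraries in which they were high. Nothing is read from these counts.

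Clu encodes clusterin, a secreted chaperone that inhibits the terminal membrane attack complex. In β-like cells it stood at 33.7, 98.2, 51.5 and 101.3 CPM and in δ-like cells at 802, 2373, 1223 and 1946 CPM. IL-1β was 2.91-fold above untreated in β-like cells (2.64 to 3.21), 5.51-fold in α-like cells (4.28 to 7.21) and 2.96-fold in δ-like cells (2.67 to 3.28). δ-like cells were above β-like cells in each library. Ductal-like cells stood at 15969, 12747, 12256 and 13373 CPM, with ratios of 0.80, 0.77 and 0.84 against untreated.

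C1qa was found in β-like cells without its partner chains. C1qa had 1393, 388, 584 and 2170 UMIs in β-like cells, or 69.1, 36.4, 40.2 and 134.3 CPM, and C1qb had 5, 2, 6 and 2. C1qc had 6, 0, 5 and 1 UMIs there. In macrophage-like cells all 3 chains were abundant, C1qa at 3615, 2500.4, 3970 and 5711 CPM, C1qb at 3588, 3442, 5113 and 6560 CPM, and C1qc at 2330 to 4062 CPM. Macrophage-like cells thus held 1078, 720, 1726 and 1746 UMIs of C1qb beside 1086, 523, 1340 and 1520 of C1qa, and no such proportion was seen in β-like cells. The β-cell C1qa level was 0.53 of untreated with IL-1β (0.47 to 0.59), 0.58 with IFN-γ (0.53 to 0.64) and 1.94 with both (1.82 to 2.08), and thinned shares of cells were 19.1%, 10.9%, 13.3% and 28.7%. In α-like cells C1qa was 0.21 of untreated with IL-1β (0.12 to 0.35). C1qa was not confined to β-like cells among the endocrine classes. Untreated δ-, PP- and α-like cells held it at 89.9, 47.6 and 47.4 CPM. With both cytokines these classes stood at 74.0, 15.7 and 40.3 CPM, below the β-like level.

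**Figure D5:**
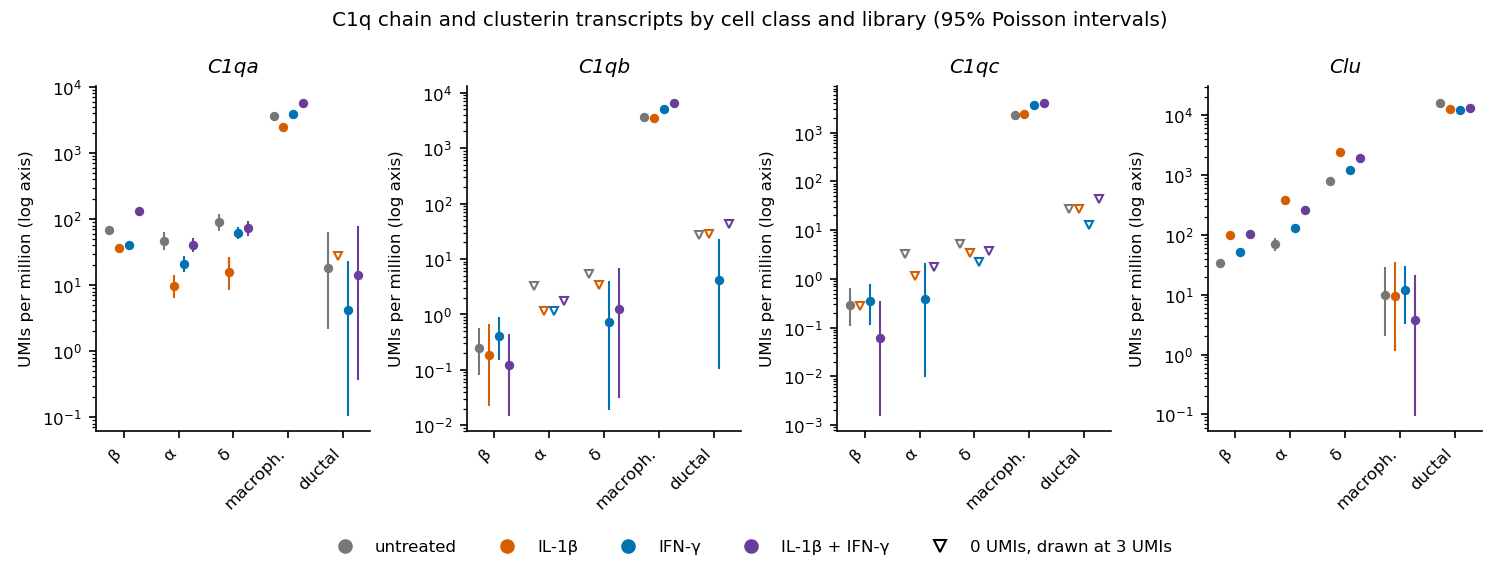
CPM (log axes) of C1qa, C1qb, C1qc and Clu in β-, α-, δ-, macrophage- and ductal-like cells of the 4 libraries, with 95% Poisson intervals; open triangles mark 0 UMIs, drawn at 3 UMIs. Only C1qa of the 3 C1q genes stands at 36.4 to 134.3 CPM in β-like cells, and Clu reaches 12256 to 15969 CPM in ductal-like cells.

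C1rl, which encodes a protease related to C1r, was at 4.27, 4.51, 7.58 and 12.6 CPM in β-like cells, and 2.96-fold above untreated with both cytokines (2.29 to 3.85). C2, cut together with C4 by C1s, had 15, 29, 27 and 59 UMIs in β-like cells, with a ratio of 4.90 for both (2.75 to 9.31). In δ-like cells C2 had 0, 2, 10 and 20 UMIs, at least 4.66-fold above the untreated floor with both. The order of the libraries for C2 was the same in both classes except between IL-1β and IFN-γ.

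Cpn1, the catalytic subunit of carboxypeptidase N that trims the C3a and C5a peptides, was lower where IL-1β was present. It stood at 43.6, 28.8, 46.0 and 24.3 CPM in β-like cells, with ratios of 0.66 (0.58 to 0.75), 1.06 (0.95 to 1.17) and 0.56 (0.49 to 0.63). Cr1l, a membrane regulator of C3 and C4 known as Crry, was present in every class, at 36.7, 61.1, 51.9 and 45.9 CPM in β-like cells. Cd59a, an inhibitor of the membrane attack complex, was at 4.76, 5.54, 7.17 and 3.34 CPM there, and had 5, 8, 14 and 0 UMIs in δ-like cells.

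C8b, a terminal component, stood at 73.2, 36.3, 56.8 and 48.6 CPM in α-like cells and at 2.98, 3.76, 5.99 and 5.26 CPM in β-like cells. Cfi, the protease that inactivates C3b, was at 12.9, 24.6, 24.9 and 20.7 CPM in α-like cells, and its ratio of 2.05 with IL-1β in δ-like cells had an interval that holds 1 (0.94 to 4.92). C7, C8a, C9 and Hc, which encodes C5, had at most 3 UMIs each over all named cells, and of the lectin pathway Mbl2 had the most, 37 UMIs.

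Receptor genes were found in macrophage- and endothelial-like cells. C3ar1, the receptor of C3a, stood at 519, 870.1, 729 and 586 CPM in macrophage-like cells, and IL-1β was 1.68-fold above untreated (1.35 to 2.09). C5ar1, the receptor of C5a, stood at 330, 421, 234 and 293 CPM there. Itgb2, a subunit of the complement receptors that bind fragments of C3, was at 203, 253, 302 and 334 CPM. Cd93, an endothelial protein once described as a C1q receptor, was at 837, 714, 334 and 222 CPM in endothelial-like cells, 0.40 of untreated with IFN-γ (0.29 to 0.54) and 0.27 with both (0.18 to 0.39). The summed endothelial markers of these cells, given above, were lower in the same order of libraries. Their relation to the Cd93 values was not tested.

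Patterns over β-, α- and δ-like cells were compared for the 4 genes at a mean of 5 CPM over these 12 points, against 9874 other genes. The nearest by Pearson's r of log2(CPM + 1) were Slc11a2 (0.97), St5 (0.97) and Slc6a14 (0.96) for Cfb, and Mitd1 (0.96), Ube2l6 (0.95) and Ppa1 (0.95) for Serping1. For C3 they were Tnfaip8 (0.96), Ube3c (0.94) and Slc30a1 (0.93), and for C1ra Pim1 (0.93), Hspa8 (0.92) and Rchy1 (0.92). The 12 points share 4 libraries and their depths, so these values are a description.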

How the data were processed

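Single-cell 3′ RNA libraries of 4 islet samples were analysed. Per the labels they were made on the 10x Chromium platform and processed with Cell Ranger against mm10. The authors deposited a filtered matrix of UMI counts per gene and barcode for each library, and these raw counts were not normalized further before they were deposited. The file headers name the Cell Ranger format version, and the kit version differs between the labels and the methods and is not given here.

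The matrices were analysed in Python 3.11.15 (pandas 2.3.3, scipy 1.17.1, numpy 2.4.6). Barcodes with 200 to 4000 genes and no more than 12% mitochondrial UMIs were used. A cell was called β-like at 5% of its UMIs from insulin genes, α-like at 3% from Gcg, δ-like at 1% from Sst and PP-like at 10% from Ppy, and other classes needed 3 detected markers. No doublet caller was run, and the upper gene limit and the cells set aside stand in for it. Clustering (igraph 0.11.9, scikit-learn 1.9.0) served as an alternative.

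Levels were summed counts with exact Poisson intervals, ratios had exact conditional intervals, differences from a sum of single-cytokine effects had normal intervals from the Poisson variances, and shares had exact binomial (Clopper-Pearson) intervals, all at 95%. A gene at 0 was set to a floor of 3 counts per class and library. Genes with a mean of at least 5 CPM over the 4 libraries were compared at a limit of 2-fold. Thinning to 4000 UMIs left out 604 cells. Genes named beyond the 7 came from the list of 47 complement genes, were read-outs or markers, or were the 3 nearest in pattern. The members and lists were chosen with earlier results of these data known. The procedures were tested on simulated data. Figures were drawn with matplotlib 3.10.9, and transcript ends were compared with edlib 1.3.9.post1.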

Additional observations from a re-analysis of the deposited data

Results flagged for a closer look

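Complement transcripts were also found in barcodes that the limits on cells removed, and the highest cytokine library was above the untreated library there for the genes below. Among barcodes with more than 4000 genes, of which 843, 146, 345 and 222 were removed by this limit, the highest levels were 151.8 CPM for C3, 23.0 for Cfb, 5.91 for C4b, 46.9 for C1ra and 15.4 for C1s1 with both cytokines, and 341 CPM for Serping1 with IFN-γ. The untreated library there had 17.6 CPM of C3, 1.59 of Cfb, 0.82 of C4b, 1.18 of C1ra, 0.41 of C1s1 and 60.2 of Serping1. Such barcodes may hold more than 1 cell, and this was not tested.

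Among barcodes with more than 12% mitochondrial UMIs, the combined library had the highest levels, with 54.7 CPM of C3, 22.6 of Cfb, 33.3 of C1ra, 25.0 of C1s1 and 246 of Serping1. The untreated library there had 25.3, 1.58, 1.27, 0 and 32.6 CPM of these genes. The single cytokines did not show this for C3, which stood at 15.1 CPM with IL-1β (9.67 to 22.4) and at 4.98 CPM with IFN-γ (2.85 to 8.09), against 25.3 CPM untreated (20.1 to 31.5).

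Some complement genes differed from untreated in opposite directions in 2 classes of cells, with intervals that excluded 1 on each side. These differences between classes were not tested. C1qa had a ratio of 1.10 in macrophage-like and 0.21 in PP-like cells with IFN-γ, and of 1.94 in β-like and 0.33 in PP-like cells with both cytokines. C8b had a ratio of 1.77 in β-like and 0.66 in α-like cells with both cytokines. Clu had a ratio of 5.51 in α-like and 0.80 in ductal-like cells with IL-1β. In acinar-like cells Clu had a ratio of 3.18 with IFN-γ and 4.43 with both, and in ductal-like cells of 0.77 and 0.84.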

How the results depend on the processing

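The alternatives were thinning, keeping cells above 4000 genes (no upper gene limit), allowing 20% mitochondrial UMIs, totals without hormone genes, classes from clusters, cells with a second hormone left out, the mean of single-cell CPM, limits of 1.5- and 3-fold, every gene with a UMI, 1 CPM added and, chosen after seeing the data, barcodes shared by 2 libraries left out. The number of the 7 genes at least 2-fold higher stayed within 1.5 times of the reported number in 100 recalculations and not in 8. It was 1 for IFN-γ in α-like cells without the upper gene limit. After thinning to 4000 UMIs it was 1 for IL-1β and 1 for IFN-γ in α-like cells and 0 for IL-1β in δ-like cells, where fewer UMIs remain. With the mean of single-cell CPM it was 1 for IL-1β in α-like cells. With a limit of 1.5-fold it was 2 for IL-1β in δ-like cells, and with 1 CPM added 2 there and 1 for IFN-γ in β-like cells. Of the single ratios 342 stayed within their interval, 27 moved beyond it, and C4b with IFN-γ in β-like cells turned from 2.08 to 0.92 after thinning. Of the ratios of C3, Cfb, C1ra and Serping1 with IL-1β and with both cytokines in β-like cells, none fell below 2 under the alternatives that recompute levels, and C1ra with both ranged from 28.2 to 93.5. Leaving hormone genes out of the totals gave Serping1 ratios of 2.46, 4.29 and 4.58. In the same setting, added for the combination after seeing the data, its level in β-like cells minus the sum of single-cytokine differences was 49.7 CPM for C1ra (43.5 to 55.9), 8.15 for C1s1 (6.13 to 10.2) and -99.3 for Serping1 (-120.1 to -78.5), with the directions reported, whereas for C3 it was 11.4 CPM (5.67 to 17.2) against 3.66 CPM (-0.13 to 7.46) with hormone genes counted. No paired analysis was possible because each condition has 1 library. Shares of cells moved beyond their interval with thinning in 42 cases and not in 42, and the untreated library was the deepest.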
